A study of Homo sapiens with 2 samples.

Results

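The immunoglobulin heavy chain locus (IGH), the kappa light chain locus (IGK) and the lambda light chain locus (IGL) encode the antibody that a plasma cell secretes. PRDM1 peaks were assigned to them by position alone, where the summit of a peak lay inside the locus or within 50 kb of it. On GRCh37 the intervals ran, in kb, from 106032 to 107288 on chromosome 14 for IGH, from 89157 to 90274 on chromosome 2 for IGK and from 22380 to 23265 on chromosome 22 for IGL. Of the 9669 peaks called over the genome, 8 met this rule, 3 at IGH, 0 at IGK and 5 at IGL.

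The sites were mapped by ChIP-seq, in which DNA bound to a protein is pulled down with an antibody and sequenced, in the multiple myeloma line U266. This established human line derives from a plasma cell tumour and secretes IgE with lambda light chains. There was 1 library immunoprecipitated with the PRDM1 rabbit monoclonal antibody C14A4 and 1 library of U266 input DNA, with no treatment named for either. After removal of duplicates the PRDM1 library held 7854466 tags and the input library 8556458, a mean of 2.91 and 3.17 tags per kb of effective genome. No library was replicated, so the 95% intervals below cover counting error only, and nothing here describes the spread between cultures. Antibody genes are cut and joined in B cells, and U266 is known to carry a piece of IGH inserted beside the cyclin D1 gene, so tags from a moved piece align to the place the piece came from.

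PRDM1 (BLIMP-1) is a zinc finger protein that binds DNA and turns B cells into antibody-secreting plasma cells, mainly by repressing genes of the B cell programme. Each antibody locus is a row of variable (V) segments followed by joining (J) segments and by constant (C) regions, and IGH also has diversity (D) segments. Recombination joins 1 V segment to a J segment, and enhancers near the constant regions then drive the assembled gene. In mouse plasmablasts Blimp-1 has been found at enhancers downstream of the Igh and Igk constant regions, so where in a locus a peak lay is given for every peak below.

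The layout of the loci was taken from the RefSeq table of GRCh38.p14, by names and order only. IGH has 48 V segments, 27 D segments, 6 J segments and 9 C regions outside pseudogenes, and all C, J and D entries lie below the V segments. IGK has 44 V segments, 5 J segments and 1 C region, in the same order. IGL has 37 V segments, 7 J segments and 4 C regions in the opposite order, with all J and C entries above the V segments. IGL also encloses 6 protein-coding genes, among them VPREB1 and IGLL5, a surrogate light chain gene and its lambda-like relative, and PRAME, a tumour antigen gene. No peak was assigned to a single segment or gene, because no annotation of GRCh37 was used here.

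All 8 peaks lay in the variable part of their locus, judged from the general layout of the loci, and none lay at the constant end or in a flank. The 3 IGH summits stood 964.2, 1110 and 1220 kb above the constant end of the interval. The 5 IGL summits stood 16.6, 73.8, 210.0, 585.9 and 784.5 kb above its variable end, and the last of them was 100.5 kb from its constant end. Peaks are numbered below in this order of position.

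**Figure D1:**
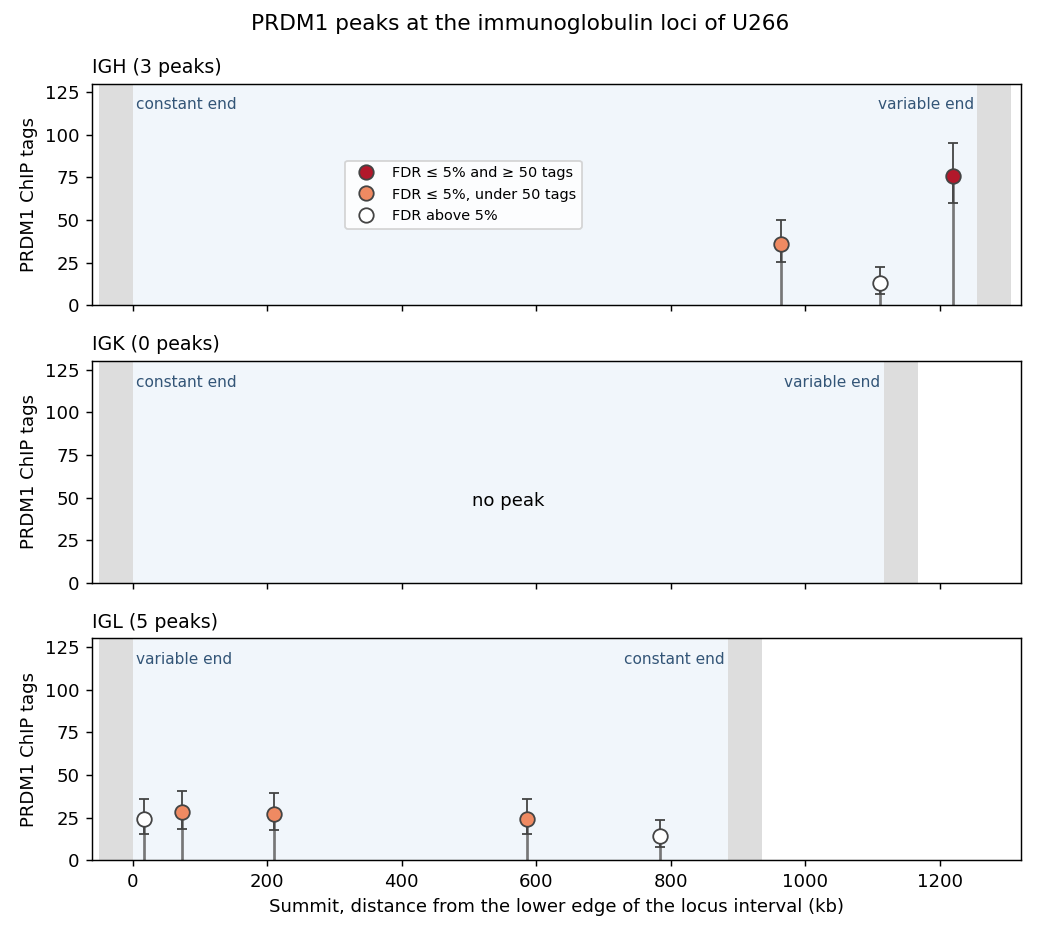
PRDM1 ChIP tags of each peak (points, with exact 95% Poisson intervals) against the distance of its summit in kb from the lower edge of IGH, IGK and IGL, with the loci shaded in blue and the 50 kb flanks in grey. The 3 IGH peaks crowd at the variable end, from 964.2 to 1220 kb, IGK is empty, and the 5 IGL peaks are spread from 16.6 to 784.5 kb.

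The strongest of the 8 peaks was at the far variable end of IGH. IGH peak 3 spanned positions 107251436 to 107253207 of chromosome 14, 1772 bp, and held 76 PRDM1 tags (95% interval 59.9 to 95.1). The input predicted 5.86 tags there on the scale of the PRDM1 library. With its tags scaled to the input library and rounded down, as for all ratios here, it held 12.9 times the expected number (10.1 to 16.1). Intervals of such ratios cover the PRDM1 tags only and take the expected tags as exact. Its tag interval lay above that of each of the other 7 peaks, the highest of which reached 49.8 tags.

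IGH peak 3 was the single immunoglobulin peak to meet the authors' limits, a false discovery rate (FDR) no higher than 5% with 50 tags or more. Those limits kept 887 peaks, 9.17% of the complete list, so 1 of 8 is near that share. The authors' caller gave IGH peak 3 an FDR of 0%, a score of 605 (minus 10 times the log10 of its p-value) and a fold of 34.7 at the summit. Among filtered peaks it was of ordinary size: 44.3% of them held more tags and 35.1% had a higher ratio to the expected tags. The median filtered peak held 72 tags over 1531 bp at 10.4 times the expected number.

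On chromosome 14 IGH peak 3 ranked 7 by tags among 21 filtered peaks, and it was the last peak before the chromosome end. The next filtered peak below it lay 4.72 Mb away, with 22 weaker peaks between them, 2 of which were the other IGH peaks.

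IGH peak 1 was of intermediate strength and passed the FDR limit but not the tag minimum. It spanned 106995525 to 106996819, 1295 bp, and held 36 tags (25.2 to 49.8), 7.53 times the expected number (5.27 to 10.4). Its FDR was 0.07% and its fold at the summit 16.2. It held more tags than 84.4% of all peaks in the complete list.

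IGH peak 2, between them, was weak. It spanned 107142164 to 107142900 and held 13 tags (6.92 to 22.2), 4.75 times the expected number (2.53 to 8.12), at an FDR of 20.2%. Of the 503 peaks of the list with 13 tags, 18.7% passed the FDR limit. The summits of the 3 IGH peaks were 146.2 and 109.9 kb apart, and IGH peak 3 held 60.8% of their 125 tags.

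Below these 3 peaks the rest of IGH was empty of called peaks. The peak-free stretch ran from 105684838 to 106995524, 1.31 Mb, and took in 76.7% of the IGH interval, including the whole constant, joining and diversity end. It was the 16th longest of 277 such stretches on chromosome 14, where the median was 138.9 kb. The peak at its lower end held 16 tags at an FDR of 27.8% and lay 347.4 kb below the IGH interval. The input coverage of this stretch is not known here, and whether reads could be aligned in it was not tested.

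The IGL peaks were all below 50 tags, and 3 of 5 passed the FDR limit. In the complete list 9.17% of peaks met both limits and 43.5% met the FDR limit. With 5 peaks neither count stands apart from these shares. IGL peak 4, from 22965719 to 22966485 on chromosome 22, held 24 tags (15.4 to 35.7). The genome mean of the input predicted 2.23 tags there on the scale of the PRDM1 library. Its ratio, from scaled and rounded tags, was 10.7 (6.85 to 15.9), at an FDR of 0.13%. Its fold at the summit, 28.4, was the highest at IGL. With fewer than 50 tags it was left out of the filtered list, although its ratio was close to the filtered median of 10.4 and ranked 676 of the 9667 peaks with a recovered background.

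IGL peak 3, from 22589509 to 22590570, held 27 tags (17.8 to 39.3). Its ratio to the expected tags was 8.62 (5.68 to 12.5), at an FDR of 0.12% and a fold of 18.9. IGL peak 2, from 22452881 to 22454029, held the most tags at IGL, 28 (18.6 to 40.5), but 4.29 times the expected number (2.85 to 6.19), at an FDR of 0.9%. Its summit lay off centre, at 76.9% of its width. The other 7 summits fell in the central 50% of their peak, where 96.3% of summits in the list fell.

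IGL peaks 1 and 5 did not pass the FDR limit. IGL peak 1, from 22396192 to 22396936, held 24 tags (15.4 to 35.7), a ratio of 2.91 (1.86 to 4.33), at an FDR of 23.9%. IGL peak 5, from 23164214 to 23164919, held 14 tags (7.65 to 23.5), a ratio of 3.75 (2.05 to 6.29), at an FDR of 42.4%. Both ratios lay below the median of 5.54 of the complete list.

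IGL peaks 1 and 4 held the same 24 tags and differed in the tags expected from the input, 8.21 at peak 1 and 2.23 at peak 4. The input background, the tags expected per base over the genome mean, was 3.79 at IGL peak 1 and 1 at IGL peak 4. The caller should not allow a value below 1, so the local input at IGL peak 4 may have been lower. Counting error of the input is not in the intervals of the ratios of IGL peaks 1 and 4. The size of the difference between them thus has no error here. Of the 157 peaks of the list with 24 tags, 83.4% passed the FDR limit, which IGL peak 4 did and IGL peak 1 did not. A background as high as at IGL peak 1 was found at 1.21% of peaks.

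**Figure D2:**
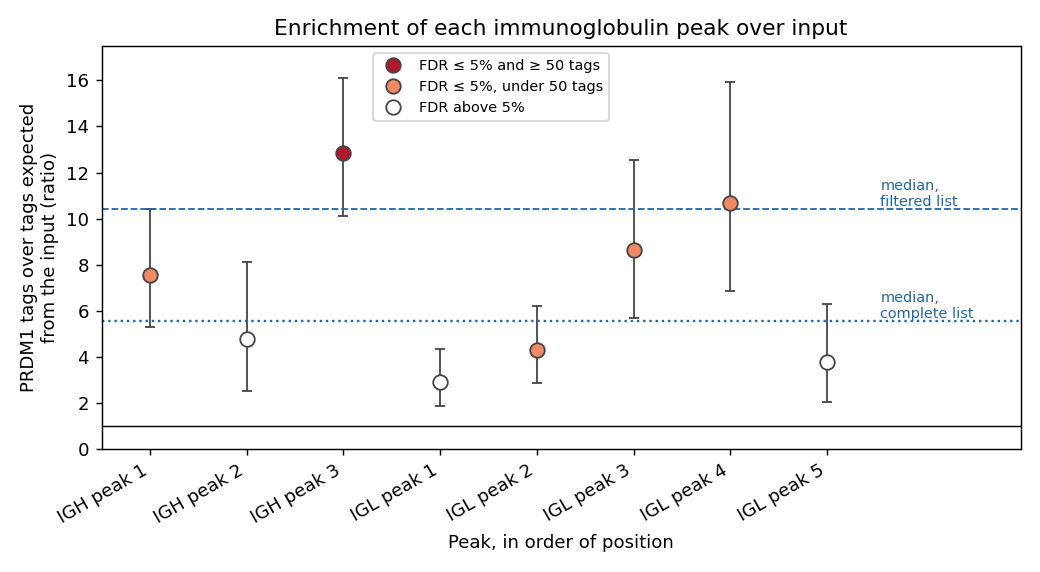
PRDM1 tags over the tags expected from the input (ratio) at each immunoglobulin peak, with exact 95% Poisson intervals on the tags, and the medians of the filtered list (dashed) and complete list (dotted). IGH peak 3 at 12.9 and IGL peak 4 at 10.7 lie above the filtered median of 10.4, while IGH peak 2 and IGL peaks 1, 2 and 5 lie below the complete-list median of 5.54.

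Summit heights, recovered from the deposited fold and the background, gave a similar picture with the counts at 1 position. The recovered height at the summit of IGH peak 3 was 25 tags, against 13 at IGH peak 1 and 7 at IGH peak 2. The heights came out as whole numbers, and whether the caller had scaled them to the input depth was not tested. At IGL the heights of peaks 1 to 5 were 13, 10, 12, 18 and 9 tags. IGL peak 4, which was 767 bp wide, thus had the highest summit there. IGL peak 2, with the most tags at IGL, had the second lowest.

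The input background spanned a wider range at the IGL peaks, which took in all 3 IGH values, and no error is given for it. At IGH it was 1.26, 1.26 and 1.14 times the genome mean. At IGL it was 3.79, 1.92, 1, 1 and 1.79, where 1 is the genome mean and the lowest value the caller should allow. The local input at IGL peaks 3 and 4 may thus have been lower, and their ratios rest on the genome mean. Of the peaks with a recovered background, 31.0% stood within 1% of the genome mean. The median over the complete list was 1.26. Variable segments resemble each other closely, and how reads that align to several places were treated is not given in the sources used here.

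In the complete list 43.5% of peaks passed the FDR limit, and 5 of the 8 immunoglobulin peaks did, 62.5%. With 8 peaks this is a difference of 1 or 2 peaks. The 8 peaks had a median of 25.5 tags, against 15 in the complete list, and a median ratio of 6.14 times the expected tags, against 5.54. Their ratios ran from 2.91 to 12.9. Together they held 242 PRDM1 tags over 8233 bp.

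**Figure D3:**
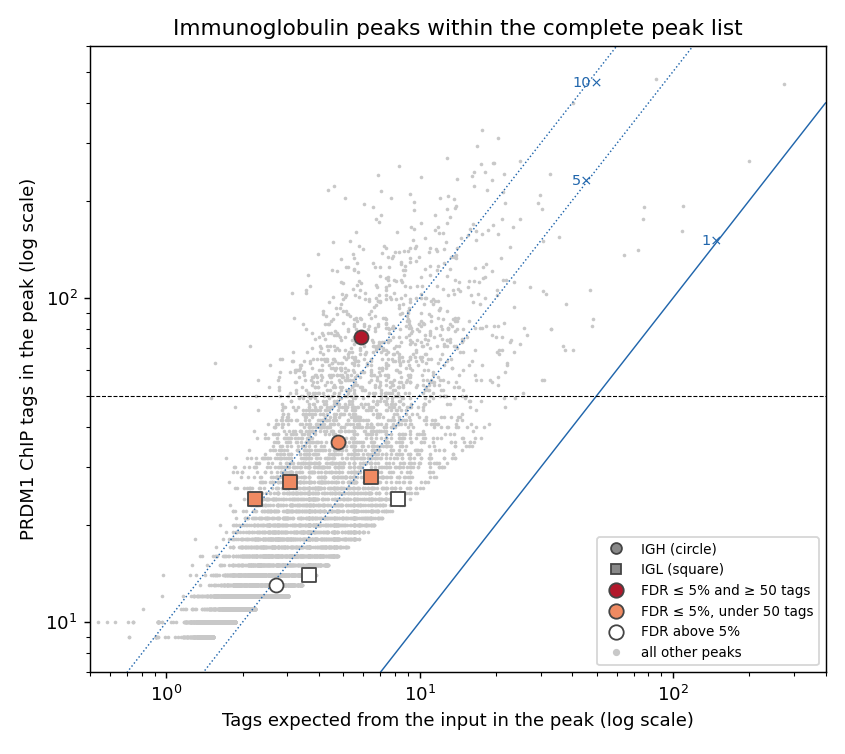
PRDM1 tags in a peak against the tags expected from the input on the scale of the PRDM1 library (both log scales), for the 3 IGH peaks (circles), the 5 IGL peaks (squares) and the other peaks of the list (grey), with lines at 1, 5 and 10 times the expected number and a dashed line at 50 tags. IGH peak 3 is the one above 50 tags, and the 2 IGL peaks with 24 tags stand far apart in expected tags, 8.21 for peak 1 and 2.23 for peak 4.

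No peak of any strength was called at IGK. The input background was recovered only inside called peaks, so the input coverage of IGK is not known here. How much of the locus could yield a peak was not tested. A count of 0 over 1.22 Mb allows up to 3 peaks, or 2.47 peaks per Mb, and the exact 95% Poisson interval used for the other loci reaches 3.03. Chromosome 2 as a whole held 3.54 peaks per Mb, which would give 4.31 peaks over this length. Peaks were not spread evenly, however: of 199 adjoining windows of the same length on chromosome 2, 9.05% held no peak, and over the genome 19.3% did.

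IGK lay in the longest peak-free stretch of chromosome 2, from 88943458 to 95547085, 6.60 Mb, which ranked 10 among 9645 stretches over the genome. By general knowledge of the chromosome this stretch also takes in the centromere. The nearest peak below IGK, from 88942891 to 88943457, lay 213.9 kb away with 13 tags and an FDR of 4.13%. The nearest above lay 5.27 Mb away with 10 tags and an FDR of 47.2%. An equal length just below the locus held 4 peaks, and an equal length just above held 0. The length above lay wholly inside the same peak-free stretch, so its count is not a separate result. Whether reads could be aligned there was not tested.

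Peaks were not detectably denser or sparser at IGH and IGL than on their chromosomes. IGH held 2.21 peaks per Mb (95% Poisson interval 0.456 to 6.47), against 2.59 on chromosome 14, a ratio of 0.854 (0.176 to 2.50). IGL held 5.08 peaks per Mb (1.65 to 11.8), against 3.02 on chromosome 22, a ratio of 1.68 (0.546 to 3.92). Counting only the part of chromosome 22 that its peaks span, the chromosome held 4.59 peaks per Mb and the ratio was 1.11 (0.359 to 2.58). Counted in this way, chromosome 14 held 3.20 peaks per Mb and the ratio at IGH was 0.692 (0.143 to 2.02). Of 52 windows of the length of IGL on chromosome 22, 26.9% held at least 5 peaks and 32.7% held none. Of 79 windows of the length of IGH on chromosome 14, 45.6% held at least 3 peaks, 29.1% held none and 19.0% held a filtered peak. These windows covered each chromosome in full, with the lengths outside the span of its peaks. Such lengths add windows without a peak and lower the other shares, and the shares within the span were not computed. Over the genome, 27.6% of windows of the IGL length held at least 5 peaks. At the IGH length, 59.4% held at least 3 peaks and 25.4% held a filtered peak.

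**Figure D4:**
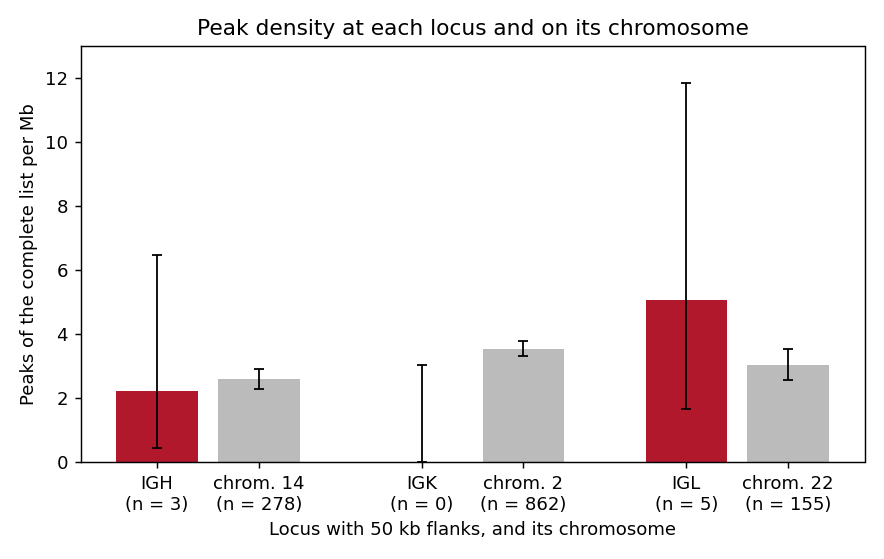
Peaks of the complete list per Mb at each locus with its flanks (red) and on its chromosome (grey), with exact 95% Poisson intervals. The intervals of IGH and IGL take in the values of their chromosomes, and the upper bound at IGK, 3.03, lies below the 3.54 of chromosome 2. The intervals assume an even spread of peaks, whereas 9.05% of windows of the IGK length on chromosome 2 held none.

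Stronger peaks stood close outside IGL. The nearest peak below it, from 22221783 to 22223118, lay 157.6 kb from the interval and held 132 tags, with a ratio to the expected tags of 26.8. Above it a peak with 12 tags at an FDR of 2.2% lay 117.0 kb away and a filtered peak with 60 tags, from 23396244 to 23397618, lay 132.1 kb away. An equal length of chromosome above IGL held 11 peaks, 2 of them filtered, and an equal length below held 3, 1 of them filtered. IGL itself held 5, 0 of them filtered. In the complete list 9.17% of peaks were filtered, so 0 of 5 is near that share. Next to IGH, an equal length below held 3 peaks, and 0 of those passed the FDR limit.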

How the data were processed

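PRDM1 ChIP-seq and input DNA of U266 were sequenced as 1 library each. The submitters' processing notes name CASAVA 1.8.2, Bowtie 0.12.7 and MACS 1.4. Peaks were called on merged alignments with MACS 1.4.1 at a p cutoff of 1e-05, per the file headers. The tags of a peak are raw counts after duplicate removal, per the file headers. The deposited score is minus 10 times a log10 p-value (Poisson, peak over input). The deposited fold is a ratio, the summit height divided by the background around it. The deposited FDR is in percent. Positions, tags, scores, folds and FDRs are the authors' own. The headers give windows of 1000 and 10000 bp for the local input background.

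The build is not given in the sources used here. Chromosome lengths were typed from general knowledge: no peak passed a GRCh37 end, whereas 2 of the 3 IGH peaks passed the chromosome 14 end of GRCh38 and all 3 that of NCBI36. Coordinates are as deposited and were read as GRCh37 on this ground.

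Expected tags were solved from the score with scipy 1.17.1, after multiplying tags by the ratio of input to PRDM1 tags, 1.09, and rounding down. Multiplied by the deposited fold, they gave a whole summit height within 0.06 tags for 98.7% of 9667 peaks. For 45 peaks, 0 of them at the immunoglobulin loci, the recovered background lay more than 2% below the genome mean, which the caller should not allow, so the recovery failed there. The solving was tested on scores simulated with the same formula and rounding. That test cannot tell whether the caller computed its scores in this way. Expected tags, ratios, input backgrounds and summit heights are thus recomputed values. Intervals are exact 95% Poisson intervals, and no test was run between groups. Windows of the length of each locus were tiled from the chromosome start, so lengths outside the span of the peaks were included and add empty windows.

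The loci and lists were chosen with earlier results of these data known. The rule for naming was every peak passing an FDR of 5%, then the 5 others with the most tags per locus, which took in all 8. The 14 further antibody genes listed (such as JCHAIN) matched RefSeq names but were not placed, since the table is on GRCh38.p14. No peak sequence is shown, since no GRCh37 genome was used here.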

Additional observations from a re-analysis of the deposited data

How the results depend on the processing

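The counts of 3, 0 and 5 peaks at IGH, IGK and IGL were the same with no flank, with a flank of 100 kb and with any overlap in place of the summit. The counts of peaks passing the FDR limit, 2, 0 and 3, were the same at 1% and 20%. IGL peak 2, at 0.9%, and IGH peak 2, at 20.2%, lay close to these limits. With a minimum of 25 tags in place of 50, by construction of the limit, 2 peaks at IGH were kept in place of 1, and 2 peaks at IGL in place of 0. The ratio of peak density to the chromosome was 0.854 at IGH and 1.68 at IGL, 0.692 and 1.11 with the span of the peaks as chromosome length (for the density ratios the largest move was this one at IGL, inside its counting interval), and 0.708 and 1.63 against the whole genome. The median ratio to expected tags was 6.14, and 6.73 with unscaled tags. No paired analysis was possible because each arm had a single library. The count of further antibody genes near a peak was not run. At 13 tags, 18.7% of peaks passed the FDR limit. The effect of depth on the calls was not tested.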
